A study of Mus musculus with 12 samples.

Results

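N6-methyladenosine (m6A) is a methyl mark on internal adenosines of messenger and long noncoding RNA. The regions described here are the m6A peaks at day 0 in genes that carry no m6A peak at all at day 4 of keratinocyte differentiation. They were chosen by gene name from the authors' 2 peak lists: a day 0 peak was taken when its gene had no line in the day 4 list. This gave 2047 peaks in 1047 genes, of 19920 day 0 peaks in 7379 genes, or 10.3% of the peaks and 14.2% of the genes. The other 17873 day 0 peaks lay in 6332 genes with peaks on both days, and 613 further genes had peaks at day 4 only.

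The cells were primary keratinocytes from the epidermis of newborn mice, expanded to passage 3 over mitomycin C-treated 3T3 fibroblast feeders in medium with 0.05 mM calcium. Day 0 cells were undifferentiated, and day 4 cells had been differentiated by a calcium shift. Each day had 3 input libraries of polyadenylated RNA and 3 libraries after immunoprecipitation with an m6A antibody, 12 in all. The labels give no strain, sex or number of animals, and do not say whether the 3 replicates of a day came from separate animals. The authors' tables hold no value per library, so the depth is unknown and no value can be shown by replicate. The p-values of the expression table measure at most the spread between these libraries, which may be technical, and whether those of the peak lists and the methylation table measure any such spread is unknown.

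The mark is written on nascent RNA by a complex of Mettl3 and Mettl14, mostly within a short consensus around the sequence GGACT, and in many messages it is dense near the stop codon and in long internal exons. Proteins that bind m6A influence how long an RNA lasts, how it is spliced and how well it is translated. The basal epidermis divides to renew itself, and raising calcium makes cultured keratinocytes stop dividing and begin to build the barrier. The series title names the long noncoding RNA Pvt1, a transcript from the neighbourhood of Myc.

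Pvt1 was itself one of the day 0-only genes. Its single peak lay at chr15:62107280-62107329 (mm10, plus strand), with an enrichment score of 74.3 and an unadjusted p of 1.4e-07. The score is the authors' own value for each peak, of unstated scale, and is used here only to rank and describe peaks within the day 0 list. Pvt1 RNA fell by 0.91 on the log2 scale from day 0 to day 4 (SE 0.18, mean normalized count 153, adjusted p 2.48e-06) in the authors' deposited table of expression. A methylation site that contains the Pvt1 peak was lower at day 4, with a log fold change of -1.19 and a false discovery rate of 0.0381 in the authors' deposited table of methylation. This site runs over chr15:62038086-62107428, far beyond the peak, so the loss cannot be placed at the peak itself.

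Sequences are shown first for the start sites of day 0-only genes, because there the deposited peaks meet a sequence that was at hand. RefSeq's table for GRCm38.p6 gives the first 50 transcribed bases of each annotated start, and 31 of the 2047 peaks touched such a window of their own gene, 12 of them covering it whole. The m6A consensus was searched as its 18 forms of 5 bases (A, G or T, then A or G, then AC, then A, C or T) on the transcribed strand only. It stood in 8 of the 12 whole windows (66.7%), against 54.4% of all 32851 start windows of the table. The GGACT form stood in 4 of the 12 (33.3%), against 5.76% of all windows. Windows under day 0 peaks of other genes were not counted apart, so these shares do not set day 0-only peaks apart from other peaks. These 4 sites are printed 5′ to 3′, with GGACT in capitals, and each is a match of letters and not a mapped methylation site.
Gsta1 (chr9:78230677-78230705, plus strand): tcctctggagctGGACTgtgagctgagtg
Gsta2 (chr9:78347096-78347113, minus strand): gagaagaagccaGGACTc
Klk10 (chr7:43781062-43781090, plus strand): tccctggtcagaGGACTgtttgcagccca
Sox15 (chr11:69655057-69655085, plus strand): tggcagctgttgGGACTttgtggagacca
The GGACT begins at base 21 of the Gsta1 and Klk10 transcripts, base 33 of Sox15 and base 45 of Gsta2, counted from 1 at the annotated start. Gsta1 and Gsta2 are glutathione transferases of near-identical sequence, so reads may have been divided between them, and their peaks run over 5279 and 9475 bp of genome. Sox15, a transcription factor, had a peak of 198 bp with a score of 12.6, and Klk10, a secreted protease of the kallikrein family, one of 499 bp with a score of 3.83. All 4 RNAs fell, with log2 fold changes in the authors' deposited table of -3.44 (Gsta1), -3.35 (Gsta2), -2.06 (Klk10) and -2.50 (Sox15).

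Promoters are shown for 2 groups of day 0-only genes that moved together. They are the cell division genes and a list of Atf4 stress, amino acid and one-carbon genes, called the Atf4 list here. The 250 bases before each RefSeq start were searched on both strands for CCAAT (the NF-Y box), TTTGAA (the cell cycle homology region), TTCCCGC (an E2F site) and TGATGNAA (the composite site of ATF and C/EBP factors), which do not overlap each other in the windows printed. CCAAT stood in 74.1% of the 27 windows of day 0-only cell cycle genes and in 52.2% of the 23 windows of day 0-only replication genes. This compares with 36.2% of the 1043 windows of day 0-only genes and 33.8% of all 32851 windows. It also stood in 60.0% of the 10 windows of day 0-only genes of the Atf4 list, which belong to 8 genes. TTCCCGC stood in 11.1% and 26.1% of the cell cycle and replication windows, 8.63% of day 0-only windows and 3.82% of all. For TTTGAA the shares were 25.9%, 13.0%, 13.9% and 16.0%. Of the 27 cell cycle windows, 6 held both TTTGAA and CCAAT, which 5.55% of all windows did. TGATGNAA stood in 2 of the 10 windows of the Atf4 list (20.0%, Slc7a11 and the lipoprotein receptor Vldlr), in 2.11% of day 0-only windows and in 3.45% of all. Genes of these lists with peaks on both days were not counted apart. The shares therefore do not set the day 0-only genes of a list apart from its other genes. The 150 bases before the start are printed for genes chosen after the search, with the searched letters of their list in capitals and each window read along its gene.
Cdc20 (chr4:118437344-118437493, minus strand): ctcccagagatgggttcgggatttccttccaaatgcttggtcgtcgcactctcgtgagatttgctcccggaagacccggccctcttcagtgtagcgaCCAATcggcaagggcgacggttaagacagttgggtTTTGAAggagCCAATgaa
Kif11 (chr19:37376232-37376381, plus strand): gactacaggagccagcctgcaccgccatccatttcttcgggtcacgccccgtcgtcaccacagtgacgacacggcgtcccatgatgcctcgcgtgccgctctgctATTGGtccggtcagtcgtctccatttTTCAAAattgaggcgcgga
Espl1 (chr15:102296143-102296292, plus strand): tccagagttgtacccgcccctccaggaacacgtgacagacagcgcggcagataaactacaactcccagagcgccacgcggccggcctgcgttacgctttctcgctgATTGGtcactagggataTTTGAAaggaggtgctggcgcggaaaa
Uhrf1 (chr17:56303187-56303336, plus strand): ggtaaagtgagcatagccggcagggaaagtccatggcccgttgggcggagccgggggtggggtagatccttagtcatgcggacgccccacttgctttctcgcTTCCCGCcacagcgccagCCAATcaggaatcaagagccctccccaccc
Slc7a11 (chr3:50443614-50443763, minus strand): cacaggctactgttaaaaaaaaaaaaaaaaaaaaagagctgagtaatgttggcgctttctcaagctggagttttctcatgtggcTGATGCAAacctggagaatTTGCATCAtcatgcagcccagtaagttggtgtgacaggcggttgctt
In Cdc20, Kif11 and Espl1 the TTTGAA or its reverse complement begins at -18, -19 and -27 from the start and a CCAAT or its reverse complement at -53, -45 and -44, with -1 the last base before the start. Slc7a11 carries the composite site at -66 on its own strand and at -47 on the other. A match of letters says nothing here about which factor was bound, and neither list holds data on promoters.

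Day 0-only genes carried fewer peaks each than genes with peaks on both days. A single peak was found in 571 of the 1047 genes (54.5%), 2 in 251, 3 in 105 and 4 or more in 120 (11.5%), against 29.6% with 1 and 26.7% with 4 or more among the 6332 genes of both days. The gene with most peaks was Vcan, a large matrix proteoglycan, with 17. Genes of mitosis, ribosome assembly, repair and replication came next. Cenpf and Cenpe, which tie chromosomes to spindle fibres, had 15 and 10 peaks, and the ribosome assembly ATPase Mdn1 had 12. The recombination gene Brca2 and the origin-firing gene Ticrr had 11 each. Alms1, Aspm and Nin, all proteins of the centrosome or spindle pole, had 9 each, and Casc5, a kinetochore scaffold, had 8. All 10 of these RNAs were lower at day 4, by the authors' deposited table, from -0.98 for Alms1 and Nin to -3.01 for Casc5 on the log2 scale. Peaks per gene come from the list that the rule used and are a description.

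**Figure D1:**
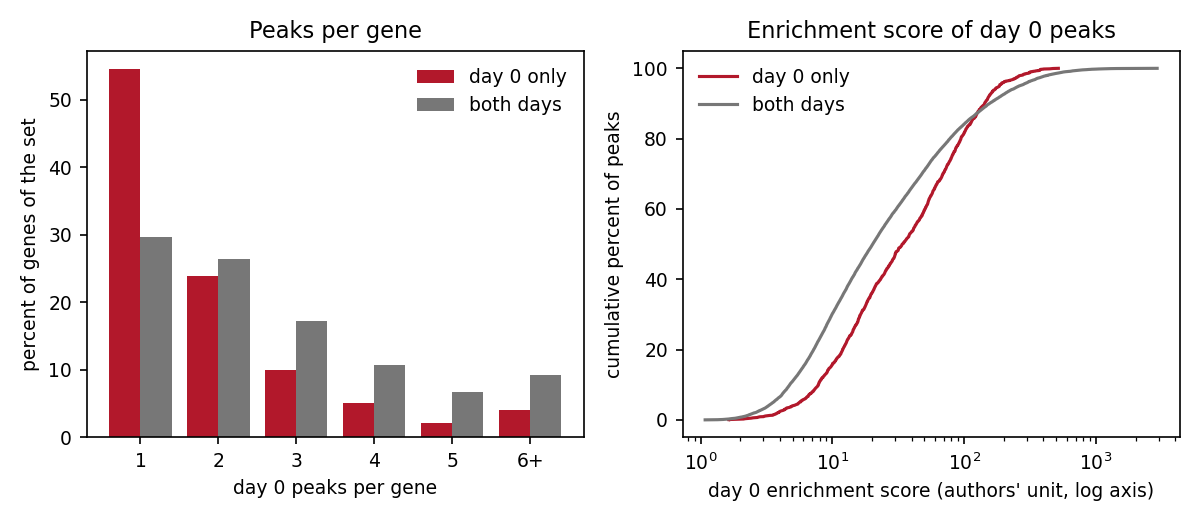
The left panel gives the percent of genes by their number of day 0 peaks and the right panel the cumulative percent of day 0 peaks by enrichment score (log axis), for genes with peaks at day 0 only (red) and on both days (grey). A single peak is seen in 54.5% of day 0-only genes against 29.6%, and the median score is 34.0 against 20.2.

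The median score of the 2047 peaks was 34.0 (quartiles 14.3 and 80.8, range 1.64 to 519), against 20.2 (8.51 and 60.0, highest 2915) for day 0 peaks of genes with peaks on both days. This order turned among genes with exactly 1 day 0 peak, where the medians were 54.4 and 64.3, and the median of each gene's highest score was 54.5 against 56.2. The unadjusted p was under 1e-5 for 89.5% of the peaks against 93.5%. Peaks of day 0-only genes spanned a median of 100 bp against 199 bp, and 42.7% against 27.1% were 50 bp long, the shortest size in the list. Of the 2047 peaks 14 stood among the 500 highest scores of day 0. That is a smaller share than the 10.3% that they make up of all day 0 peaks.

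Predicted genes are left out of the order by score given here, of which Gm28042, at 460, would stand between Plk4 and Rev3l. The highest score, 519, belonged to Kansl1l, a relative of a histone acetylation scaffold, whose RNA is not listed as changed. Second was Plk4 (473), the kinase that starts centriole duplication, and then came Rev3l (445), the catalytic subunit of a lesion-bypass DNA polymerase. Cd274, the immune checkpoint ligand PD-L1, had 400 and Nuf2, a kinetochore protein, 398. Brip1, a helicase that partners Brca1, the base-excision glycosylase Mbd4 and Tmem144 each had 380. Cdan1 had 378, Dtl, a receptor for a ubiquitin ligase of S phase, and the lipid flippase Atp10a 375 each, the helicase Ddx11 357 and the diphthamide enzyme Dph7 349. Akap2 and Pakap, with 370, are 2 names for the same positions and count as 1 place. Of these 15 names the authors' deposited table lists 12 as lower at day 4, from -0.41 for Cdan1 to -2.75 for Brip1, and Kansl1l, Tmem144 and Dph7 were not listed.

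Along the gene, the shares of peaks near either end were close to those of other day 0 peaks. Within 1000 bp of the annotated 3′ end of a protein-coding gene lay 29.4% of them (582 of 1978), against 29.7% of the 17625 day 0 peaks of genes with peaks on both days, and within 1000 bp of the 5′ end 8.14% against 9.18%. Some strong peaks were close to the 3′ end: that of Cdt1, the licensing factor that loads the replicative helicase, ended 50 bp from it, that of Nuf2 294 bp and that of the nucleoside transporter Slc29a1 247 bp. Others were far away, as in Pola1, the catalytic subunit of the priming polymerase, at 321784 bp. By RefSeq, 1015 of the 1047 genes were protein-coding, 21 (2.01%) were long noncoding RNA genes against 0.553% among genes of both days, 6 were transcribed pseudogenes and 5 found no match.

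**Figure D2:**
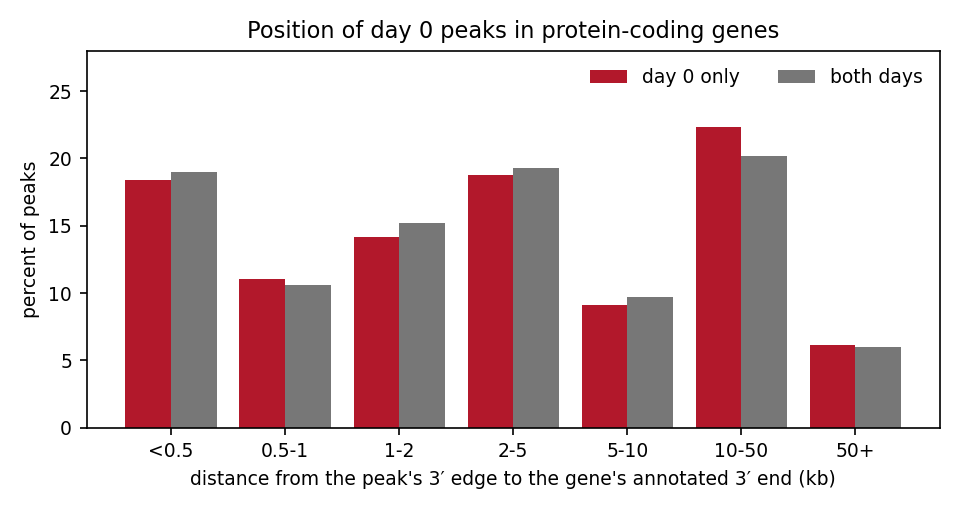
Percent of day 0 peaks of protein-coding genes by the distance from the peak's 3′ edge to the annotated 3′ end of the gene (kb of genome, introns included), for genes with peaks at day 0 only (red) and on both days (grey). The bars of both sets follow each other closely, with 18.4% and 19.0% in the nearest class.

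The next comparison asked how the RNA of these genes changed between the days. Of the 1047 genes, 765 were lower at day 4 by the authors' deposited table (73.1%, where 26.4% of the 14924 genes tested were called lower), 32 were higher (3.06%, where 27.1% were called higher) and 250 (23.9%) were not listed, so either not called or not tested. A call in either direction was made for 53.5% of the genes tested. A fall of at least 2-fold was listed for 448 (42.8%, where 9.9% of tested genes had one). The 797 listed genes had a median log2 fold change of -1.16 (quartiles -1.94 and -0.66), against 0.26 over all listed genes. Genes with peaks on both days split evenly, 1973 lower and 1978 higher of 6332, with a median of 0.18, and genes with peaks at day 4 only had 31 lower and 466 higher of 613. The header of the expression table does not name the libraries compared, and it is read here as input against input from the study's design. If so, the same libraries enter the peak calls, and the expression change is not independent of the rule. Whether less RNA came from fewer cells of a kind or from less RNA per cell cannot be told apart in these bulk samples.

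**Figure D3:**
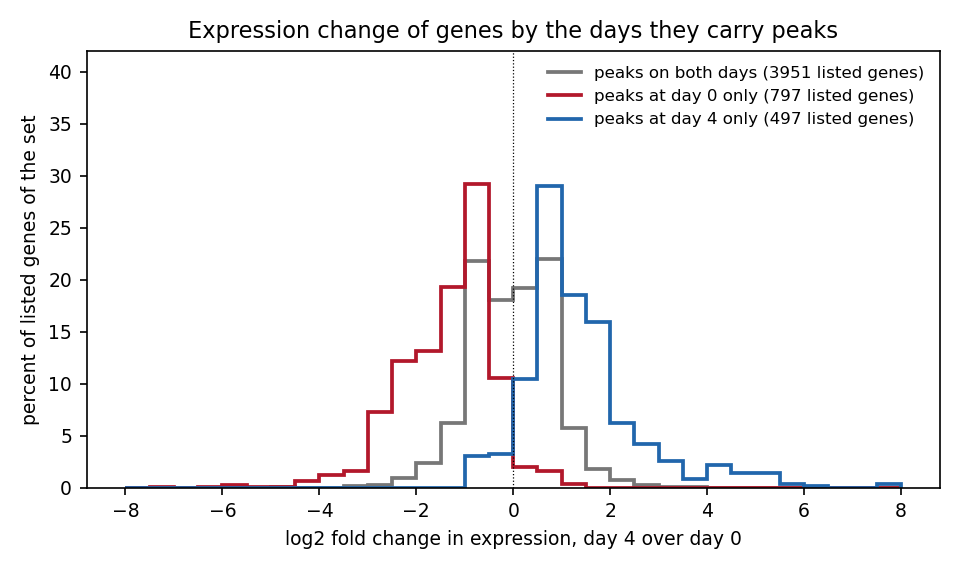
Percent of listed genes by log2 fold change (day 4 over day 0, classes of 0.5), for genes with peaks at day 0 only (red, 797 listed), on both days (grey, 3951) and at day 4 only (blue, 497). The red distribution lies mostly below 0 (median -1.16) and the blue mostly above (median 1.10), with grey on either side.

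Day 0-only genes were of lower level: the median of the mean normalized count was 356 over their listed members, against 1090 for genes of both days. Within ranges of this mean the directions stayed apart. Under a mean of 200, 188 of 195 listed day 0-only genes were lower (96.4%), against 73 of 139 (52.5%), and at 1000 or more 122 of 132 (92.4%), against 1050 of 2120 (49.5%). The part of RNA level in the loss of a peak was not tested.

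The 12 largest falls among genes with a mean of at least 100 included 4 genes of amino acid and folate metabolism. The log2 value of Cth, which makes cysteine from cystathionine, was -5.83 (SE 0.24) and that of the mitochondrial folate enzyme Aldh1l2 -5.82 (SE 0.19) in the authors' deposited table. Gjb2, the gap junction protein connexin 26, followed with -5.20 (SE 0.42), then Slc7a11, the cystine importer, with -4.65 (SE 0.20) and the folate enzyme Mthfd2 with -3.78 (SE 0.16) in the authors' deposited table. Others of the 12 were Vwa2, Nr1h5, Phyhd1, the growth factor Nrg2, the lipase Dagla, the efflux pump Abcc3 and Slc29a1, from -4.32 to -3.76 in the authors' deposited table. These genes had 1 to 6 peaks, with highest scores from 24.8 (Nrg2) to 292 (Nr1h5).

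Rises were small. The transcription factor Tead2 (1.10, SE 0.14), the homeobox gene Hoxb8 (1.09, SE 0.17) and the methylmalonyl epimerase Mcee (1.01, SE 0.19) rose most among genes with a mean of at least 100 in the authors' deposited table. Rab24, Hsbp1, Ormdl3, Oraov1, Fis1, Vta1, Wipi1, Hcfc1r1 and Ccdc23 rose by log2 fold changes of 0.61 to 0.86 in the authors' deposited table. Of these, Rab24 and Wipi1 act in autophagy, Vta1 in endosome sorting and Fis1 in organelle fission. Every one of these 12 had a single peak. Over all 32 higher genes, 84.4% had 1 peak and the median highest score was 16.1, against 50.2% and 54.9 for the 765 lower genes and 64.0% and 62.1 for the 250 not listed. The not listed genes with high scores included Kansl1l, Tmem144 and Dph7.

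Genes were then described by list, each list counted among its genes with a day 0 peak. Over all such genes 14.2% had no peak at day 4. Among 41 cell cycle and mitosis genes it was 27 (65.9%), among 44 DNA replication genes 23 (52.3%) and among 48 DNA damage and repair genes 22 (45.8%). All 72 entries were lower by the authors' deposited table, with medians of -2.40, -1.84 and -1.89. The genes of these lists with peaks on both days were also mostly lower, 13 of 14, 21 of 21 and 15 of 26, with medians of -1.86, -1.04 and -0.53.

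The day 0-only genes of cell division are given by the step they serve. For entry, the log2 fold change was -0.59 for Ccne1, the G1/S cyclin, and -0.66 for its kinase partner Cdk2 in the authors' deposited table. For mitotic entry, it was -2.88 for the cyclin Ccnb1, -1.92 for the phosphatase Cdc25b, and -2.12 and -2.38 for the kinases Plk1 and Aurka in the authors' deposited table. For chromosome attachment and its checkpoint, values were -2.33 for Nuf2, -2.81 for Bub1b, -2.85 for Ttk and -2.16 for Mad2l1 in the authors' deposited table. For separation and cleavage, they were -2.51 for Cdc20, which activates the ligase of anaphase, -2.34 for the protease separase (Espl1), -2.30 for the midzone bundler Prc1 and -3.09 for the ring protein Anln in the authors' deposited table. Peaks differed in strength along this series, with highest scores of 473 for Plk4, 398 for Nuf2, 227 for Kif11, 65.5 for Ccnb1, 17.8 for Cdc20 and 9.33 for Mad2l1. The promoters of Cdc20, Kif11 and Espl1 are those printed with both TTTGAA and CCAAT.

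Kinesins, the motors that walk on microtubules, gave 12 day 0-only genes of 23 (52.2%). Of these the authors' deposited table lists 11 as lower, with a median of -2.47. They included the spindle motors Kif11 (-2.72), Kif14 (-2.52), Kif20b (-2.47) and Kif15 (-2.83) in the authors' deposited table, and the transport motor Kif3a was not listed. The 11 kinesins with peaks on both days had 3 lower, 3 higher and a median of 0.02 in the authors' deposited table.

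Replication genes spanned licensing to synthesis. Origin recognition was represented by Orc1, Orc5 and Orc6, and licensing by Cdt1 (score 347) and Cdc6 (298). The helicase was represented by Mcm2 and Mcm4, initiation by Mcm10, and synthesis by Pole, Pole2, Pola1, Pola2, Prim1 and Prim2. Log2 fold changes in the authors' deposited table ran from -0.62 for Gins3 to -2.82 for Pole. Uhrf1, which guides DNA methylation to new strands, had 4 peaks and a log2 value of -2.03 in the authors' deposited table. In repair, the Fanconi genes Fancb, Fancd2, Fancf, Fanci and Fancl, the recombination genes Brca1, Brca2, Bard1, Palb2 and Xrcc2, and the checkpoint kinases Atr and Chek1 had peaks at day 0 only. Fancd2 had the largest fall among them (-3.20) and Msh3, a mismatch recognition protein, the smallest (-0.59) in the authors' deposited table.

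**Figure D4:**
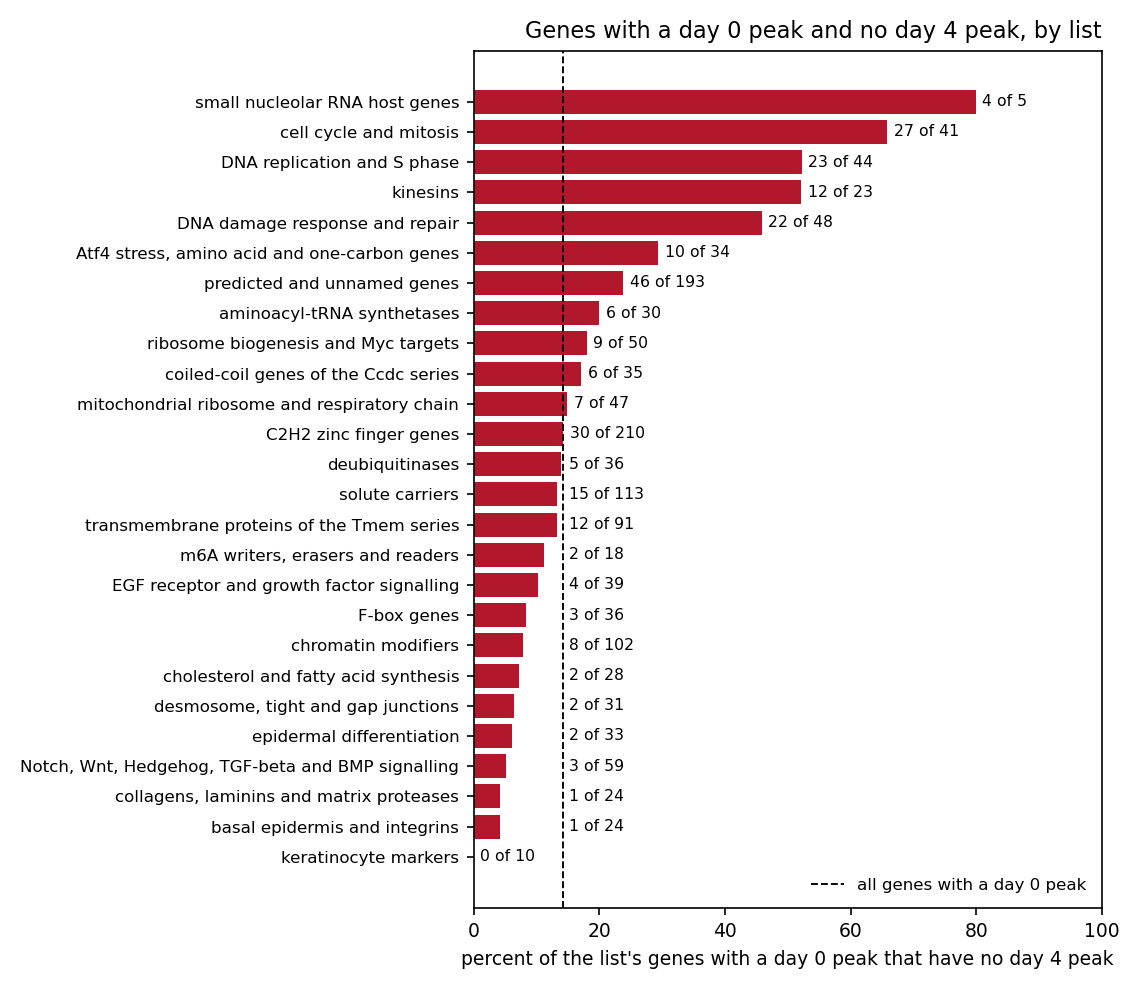
Bars give the percent of each list's genes with a day 0 peak that had no day 4 peak, with the counts beside them, for lists with at least 5 such genes, 1 list left out. The dashed line marks all genes with a day 0 peak (14.2%), and the cell cycle, replication, kinesin, repair and small nucleolar RNA host lists stand from 45.8% to 80.0%.

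The Atf4 list, named for the stress factor that drives amino acid uptake and one-carbon metabolism, had 10 day 0-only genes of 34 (29.4%). All 10 were lower in the authors' deposited table, with a median of -3.49, as were 21 of its 24 genes with peaks on both days (median -2.70). Besides Cth, Slc7a11, Aldh1l2 and Mthfd2 they were the hormone Stc2 (-6.28, SE 0.62, mean normalized count 68.5), the serine enzyme Psph (-3.19), Atf5 (-2.85), Mthfd1l (-2.21), the factor Cebpb (-1.25) and the lipoprotein receptor Vldlr (-0.62) in the authors' deposited table. Cebpb had the strongest peak of them (138) and Atf5 the weakest (4.01). Aminoacyl-tRNA synthetases, which charge tRNA, gave 6 of 30 (20.0%), all lower, with a median of -1.16 in the authors' deposited table. Their names were the mitochondrial Vars2, Nars2, Tars2, Ears2 and Wars2 and the cytosolic Iars. Of the 24 synthetases with peaks on both days 21 were lower and 0 higher, with a median of -1.23 in the authors' deposited table.

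Ribosome biogenesis and Myc target genes gave 9 of 50 (18.0%), all lower, with a median of -1.74 in the authors' deposited table. Among them were Mycn (score 186), the pyrimidine enzyme Cad (163), the nucleolar Wdr12 (96.5) and Pvt1. The 41 genes of this list with peaks on both days had 35 lower, 2 higher and a median of -1.10 in the authors' deposited table. Small nucleolar RNA host genes gave 4 of 5: Snhg1, Snhg5, Snhg12 and Snhg17, all lower, with a median of -2.09 in the authors' deposited table. Mitochondrial ribosome and respiratory genes gave 7 of 47 (14.9%), near the share of all genes, all lower, with a median of -0.83 in the authors' deposited table. Mrps9, Sdha, Mrpl2 and Mrpl37 had the strongest peaks of these, with 66.0 for Mrps9. The 40 mitochondrial genes with peaks on both days had 32 lower, 1 higher and a median of -0.66 in the authors' deposited table.

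Lists of epidermal identity gave few. Of 24 basal and integrin genes only Nfatc1, a factor known from quiescent hair follicle stem cells, was day 0-only (score 147, log2 fold change -0.52 in the authors' deposited table). Epidermal differentiation gave 2 of 33, the lipoxygenase Aloxe3 (-1.93) and Klk10 (-2.06) in the authors' deposited table, and junctions gave 2 of 31, Gjb2 and the desmosomal cadherin Dsg1a (-1.21) in the authors' deposited table. Keratinocyte markers gave 0 of 10, since all 10, from Krt5 to Perp, had peaks on both days. Signalling by Notch, Wnt, Hedgehog, TGF-beta and BMP gave 3 of 59: the Hedgehog factor Gli3 (score 248, log2 fold change -1.67) and the activin antagonist Fst (-2.28) were lower in the authors' deposited table, and the receptor Acvr2b was not listed. EGF receptor and growth factor signalling gave 4 of 39, with Etv5 (-4.01), Nrg2 (-3.93) and the receptor Fgfr3 (-0.44) lower in the authors' deposited table and Braf not listed.

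Among 18 genes that write, erase or read m6A and had a day 0 peak, 2 were day 0-only. Mettl14, the RNA-binding partner in the writer complex, had 3 peaks with scores up to 27.9 and fell by 0.50 on the log2 scale (SE 0.14, adjusted p 1.05e-03) in the authors' deposited table. Igf2bp3, a reader known to stabilise marked RNA, had 1 peak of score 116 and fell by 1.55 (SE 0.11) in the authors' deposited table. Chromatin modifiers gave 8 of 102 (7.84%), of which 7 were lower and Setdb2 was not listed. The histone H3 methyltransferases Suv39h2 (-2.49) and Suv39h1 (-2.12) and the remodeller Hells (-2.49) fell most in the authors' deposited table, while Ino80 fell by 0.81.

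Zinc finger genes, mostly transcription factors, were counted by name. Of 210 with a day 0 peak 30 were day 0-only (14.3%, at the share of all genes), and 9 of these were lower, 1 was higher and 20 were not listed in the authors' deposited table. Zfp111 (168), Zfp157 (150), Zfp788 (147) and Zfp120 (143) had the highest scores, and Zfp788 fell by 0.67 in the authors' deposited table while the others were not listed. These genes share a repeated motif, so reads may have been divided among relatives.

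Solute carriers gave 15 of 113 (13.3%), 12 lower, 1 higher and 2 not listed, with a median of -1.85 in the authors' deposited table. The strongest peaks were in Slc9a5 (202), Slc35d1 (197), Slc35g1 (191) and Slc17a8 (186). Deubiquitinases gave 5 of 36 (Usp15 highest, 213), F-box genes 3 of 36 (Fbxw17, Fbxo3 and Fbxo5), the Tmem series 12 of 91, the Ccdc series 6 of 35 and predicted genes 46 of 193. Cholesterol and fatty acid synthesis gave 2 of 28, Acsl1 (score 238) and Elovl5 (65.1), and collagens, laminins and matrix proteases 1 of 24, Timp1.

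Markers of other cells were checked beside these counts. Of 14 fibroblast and feeder markers none had a day 0 peak and 2 had a day 4 peak, and of 8 melanocyte markers none had a day 0 peak and 1 had a day 4 peak. Of 9 immune and endothelial markers 1 and of 4 Merkel cell markers 2 had a day 0 peak, all on both days. Of the 14 fibroblast markers 5 were higher and 1 lower at day 4 by the authors' deposited table, with a median log2 fold change of 2.35 over these 6 and 4.58 for Col5a1, where the 10 keratinocyte markers had 6 higher and 4 lower (median 0.56). The Merkel and simple-epithelium keratins Krt8 (2.20) and Krt18 (2.97), the melanocyte markers Kit (6.14) and Mitf (1.65) and the endothelial Pecam1 (2.32) and Kdr (0.38) were higher and the macrophage marker Cd68 (-1.92) lower at day 4 by the authors' deposited table. Kit and Pecam1 were of very low level, with mean normalized counts of 4.74 and 5.30. Not listed were 8 of the 14 fibroblast, 6 of the 8 melanocyte, 6 of the 9 immune and endothelial and 2 of the 4 Merkel markers. Means of the listed fibroblast markers were 50.9 to 2763, against 2973 to 209477 for keratinocyte markers, and the part of these markers in the falls was not tested.

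The last comparison set the peaks beside the authors' table of differential methylation, which is made from the same immunoprecipitated libraries as the peak lists and is therefore a description. It holds sites under a false discovery rate of 0.05, 6.96% of the 36796 tested, with 2.17% losses and 4.79% gains, and the base of its log fold change is not stated. Of the 2047 peaks 74 (3.62%) overlapped 65 listed sites in 62 genes, 46 losses and 19 gains. Counted by gene symbol wherever the site lies, the same 1047 genes held 106 listed sites, 50 losses and 56 gains, so the majority of losses holds for sites over the day 0 peaks and not for all sites of these genes. Of these 106 sites 14 had an infinite log fold change, 13 of them gains. Other day 0 peaks overlapped sites more often (11.1%), with 659 losses and 835 gains. Among sites of genes outside the set that lay over a day 0 peak and no day 4 peak, 44 of 56 were losses. A majority of losses is therefore not particular to day 0-only genes. The median change was -1.25 for losses and 1.90 for gains over day 0-only peaks in the authors' deposited table.

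Most genes with a loss were lower in RNA, and most of the others were not listed as changed. Of all 1047 day 0-only genes, 73.1% were lower and 23.9% not listed. A majority with lower RNA is therefore not particular to genes with a loss. Dph6, a diphthamide enzyme, had the largest loss (-3.97, false discovery rate 0.0442) over a site that covers its whole peak. Next came Nfatc2ip (-2.35), the kinase Map4k5 (-2.34), the cargo receptor Tmed5 (-2.28) and Suv39h2 (-2.19) in the authors' deposited table. Etaa1, an activator of Atr, had -1.91, Rev3l -1.73, Fam111a -1.71, Alms1 -1.71 and Frmd4a -1.68 in the authors' deposited table. By gene, 30 genes had a loss with lower RNA, 13 a loss with RNA not listed and 2, Mcee and Sec22a, a loss with higher RNA. Nfatc2ip and Map4k5 belong to the 13.

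Gains were found over peaks of genes that had no day 4 peak, and all 17 genes with one were lower in RNA, as were 765 of the 797 listed day 0-only genes. Cdc20 had the largest (4.29), at chr4:118437195-118437293 just inside its annotated start, followed by the kinetochore gene Pmf1 (3.13), the late cornified envelope gene Lce3c (2.72), the keratinocyte proline-rich gene Kprp (2.59) and Ass1 (2.51) in the authors' deposited table. Rtn4r had 2.26, Phf10 1.91, Atf5 1.90, Serpinb1a 1.71 and Sema7a 1.62 in the authors' deposited table. A gain in the methylation table beside no line in the day 4 peak list is a difference between these 2 files whose cause was not tested. The Ass1 peak also overlaps a day 4 peak under the name Gm5424.

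**Figure D5:**
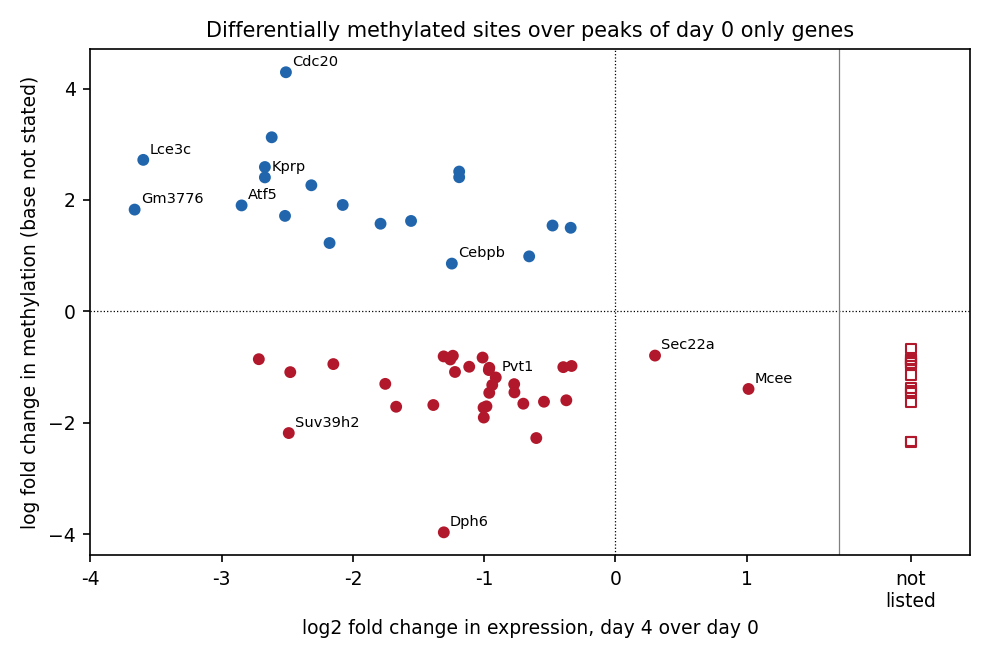
Each point is a differentially methylated site over a day 0-only peak, with its gene's log2 fold change in expression across and the site's log fold change in methylation up. Blue gains (19) all lie left of 0. The 46 losses are red points for listed genes and open squares, in the right column, for genes not listed for expression. The red points lie left of 0 except those of Mcee and Sec22a.

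The edge of the rule was drawn by single lines of the day 4 list. Of the genes with peaks on both days 1902 had exactly 1 day 4 line. Just outside were the genes whose only day 4 line had the largest unadjusted p: Exosc6 (0.00692), Nudt16l1 (1.76e-04), Snx21 (1.32e-04), Nr2f6 (7.76e-05) and Man1a (3.77e-05). Just inside with the weakest best peak at day 0 were Ndufa5 (0.00406) and Fis1 (7.56e-04), then Cox17, Lamtor4 and Klf7. Names also decide the edge: 5 of the 2047 peaks overlapped a day 4 peak of another name on the same strand (in Ass1, Gm10052, Gm28042, Hnrnpa1 and Xntrpc). A further 16 genes carried an Ensembl identifier that stands in the day 4 list under another name. Among them were Ticrr, Mbd4, Gins1 and Vars2, with the day 4 names Lrrk1, Med1, Gins4 and Vars. For 7 of the 16 the identifier belongs to another symbol, and none of the 16 had a peak over a day 4 peak on the same strand.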

How the data were processed

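Per the labels' protocols, polyadenylated RNA was fragmented by sonication, enriched with an m6A antibody kit and made into stranded libraries. HISAT2 2.1.0, DESeq2 1.18.1 and mm10 come from the submitters' processing notes, while no source used here names the peak caller, how replicates were joined or the methylation test. Per the file headers, the 2 deposited peak lists give an enrichment score and an unadjusted p-value per peak. The authors' deposited expression table gives a mean normalized count, a signal averaged over libraries, the log2 fold change with its error and an adjusted p-value, in columns named as DESeq2 names them. The authors' deposited methylation table gives a log fold change of unstated base, handled as a score, beside p-values and false discovery rates. Both comparison tables list only lines under 0.05.

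The number tested was derived from adjusted p, p and rank. The direction, day 4 over day 0, was read from genes outside the set: 28 of 28 listed cell cycle genes were negative, Ivl was 3.67, and 414 of 419 sites over day 4 peaks alone were positive. Peaks were matched by symbol and intersected on the same strand by at least 1 bp, in code checked on simulated intervals. Genes were matched to RefSeq (GRCm38.p6), 1042 of 1047, 54 by synonym, and 857 had a promoter window. No test was made, since the files hold no value per library. The genes, the 31 lists and the tables were chosen with earlier results of these data known. Named genes are Pvt1, the 15 highest scores, the 10 with most peaks, the 12 largest falls and rises at a mean of at least 100, the 10 largest losses and gains of methylation, up to 4 per list by score and 5 just outside the rule, leaving out predicted genes. The result of 1 list and 1 member of another are not reported here. Other names were chosen after their values were seen. Alternatives were stricter p-values, a 2-fold change, other overlap rules and other windows. Software was Python 3.11.15 with numpy 2.4.6, pandas 2.3.3, scipy 1.17.1 and matplotlib 3.10.9.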

Additional observations from a re-analysis of the deposited data

How the results depend on the processing

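The number of peaks, 2047, stayed within 1.5 times under the 5 alternatives tried (matching by Ensembl identifier, leaving out peaks over a day 4 peak of another name, and p under 1e-5 in either or both lists), from 1832 to 2075. The share of genes lower at day 4, 73.1% (95% exact binomial interval 70.3 to 75.7, for counting over genes only), was 70.0% at an adjusted p under 0.01, 42.8% with at least 2-fold, 68.4% with a mean of at least 100 and 80.0% among genes with 2 or more peaks. It was 74.2% with a peak under p 1e-5, and 72.9% and 73.4% without doubtful names and without predicted genes, which were chosen after seeing the data. The 74 peaks over a methylation site became 32 at a false discovery rate under 0.01 and 204 by symbol alone, and remained 74 in number on either strand and at 50% of the peak. The median score of 34.0 became 40.7 for peaks under p 1e-5, against 22.7 for genes of both days. In genes with 1 day 0 peak it was 54.4, against 64.3. The interval of 30.4 to 38.0 around 34.0 came from the ranked scores, with every peak counted as independent. Many peaks share a gene, so this interval may be too narrow, and it measures no spread between libraries. The share near the 3′ end was 18.5% within 500 bp and 43.6% within 2000 bp, against 19.1% and 44.9%. No paired analysis was possible because the deposited tables carry no value per library, and for the same reason no replicate could be left out and depth is unknown.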
